A study of Mus musculus with 36 samples.

Results

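The expression of the tumour suppressor gene Trp53, of 7 genes that its product p53 is known to induce, and of 2 inhibitors of cell cycle kinases was followed in mouse pancreatic fibroblasts grown alone or with tumour cells. The 10 genes were Trp53, Mdm2, Cdkn1a, Ccng1, Bbc3, Zmat3, Phlda3, Sesn1, Cdkn2a and Cdkn2b, chosen by symbol, and each matched 1 row among the 39017 genes of the count table. All 10 passed the filter on low counts, which left 14439 genes to be tested, and their lowest count in a library was 101, for Bbc3.

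Fibroblasts of the C57BL/6 strain were grown without tumour cells (mono-culture) or in direct co-culture with a tumour line for 48 h, and were then separated from the GFP-expressing tumour cells by FACS. The 9 groups of 4 libraries were the mono-culture, the co-cultures with Clone E, Clone H, Clone K, Clone M, Clone N, Clone T and Clone V, each of them 1 tumour sub-clone, and a co-culture with KPC1, which the labels leave unexplained. The labels give no drug, no genotype and no age for the fibroblasts, and they do not say whether the libraries of a group came from separate cultures, so the p-values measure the spread between these libraries, which may be technical. They do not say either whether mono-cultured fibroblasts passed through the sorter, so that co-culture and sorting cannot be told apart where a co-culture is compared with the mono-culture. In the serial numbers of the sample titles the mono-culture libraries come last, apart from all co-cultures. What these numbers stand for is not given, so an effect of that order cannot be told apart from co-culture either.

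p53 is a transcription factor that accumulates after DNA damage and other stresses and switches on genes for cell cycle arrest, cell death and repair. Mdm2, itself a p53 target, marks p53 for degradation and so closes a feedback loop, and much of the control of p53 acts on the protein rather than on its RNA. The Cdkn2a and Cdkn2b genes lie side by side and encode inhibitors of the kinases Cdk4 and Cdk6, and Cdkn2a also encodes Arf, an inhibitor of Mdm2. In fibroblasts these genes are known from work on culture stress and senescence.

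The libraries held 12532122 to 21985538 counts. The 10 fibroblast markers together summed to 10600 to 32200 CPM per library, counts scaled to a common library total. Col1a1, Col1a2, Col3a1 and Vim led, while Lum had a median of 2.2 CPM over the libraries and Fap a mean of 1.12 CPM in the mono-culture. The 14 epithelial markers summed to 3.02 to 4.43 CPM in the mono-culture and to 20.4 to 797 CPM in co-cultures, led by Krt8, Krt18 and Krt19, while Cldn4 was at 0 in 34 libraries and Epcam in 24. Of the 5 immune markers, Adgre1 was at 0 in 35 libraries and Ptprc in 24, and the sum stayed between 1.38 and 16.9 CPM. The 4 endothelial markers summed to at most 6.23 CPM.

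Members' levels below are CPM scaled by TMM, a correction for differences in library composition, and changes are log2 fold changes from edgeR's quasi-likelihood test, called at a p-value under 0.05 after Benjamini-Hochberg adjustment over all genes tested. The 8 comparisons with mono-culture share its 4 libraries. In bulk RNA, fewer cells that express a gene and less RNA per cell cannot be told apart.

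Per unit of gene length the most abundant of the 10 RNAs in the mono-culture was Cdkn2a, at 708 ± 6.99 RPKM (SD, n = 4), a read count scaled by library size and gene length. Cdkn2b stood at 125 ± 7.37 RPKM, Cdkn1a at 61.1 ± 7.17 and Trp53 at 56.1 ± 4.42. The lowest were Zmat3, at 7.33 ± 0.420 RPKM, and Bbc3, at 6.83 ± 1.02.

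Co-culture with clones H, T and V and with KPC1 was accompanied by higher Trp53, Mdm2, Cdkn1a, Bbc3 and Zmat3 and by lower Sesn1 and Cdkn2a. With clones M and N the calls were of Cdkn2b and Phlda3 alone, with clone K of these and of Cdkn2a, all higher, and with clone E of Trp53, Mdm2, Zmat3 and Phlda3. Phlda3 was called higher in 7 of the 8 co-cultures, in all but the one with clone V.

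The sum of the fibroblast markers was lower in the co-cultures with KPC1 and clones H, T and V. Their median sum was 22900 CPM in the mono-culture and 22700 to 27100 CPM with clones E, K, M and N, but 14700 CPM with KPC1 and 16800, 17100 and 16900 CPM with clones H, T and V. Of the 10 genes 6 (KPC1 and clone T) or 5 (clones H and V) were called lower there. Of all genes tested 28.5%, 24.7%, 26.4% and 28.9% were called lower with KPC1 and clones T, H and V. The count was 0 with clones E, K, M and N, by edgeR, DESeq2 and limma and at an unadjusted p under 0.05. Of all genes 15.5%, 8.69%, 10.8% and 19.2% were lower with these clones. Most of the sum came from Col1a1, Col1a2 and Col3a1, at means of 7570, 5860 and 5390 CPM in the mono-culture. Fap, Pdgfrb and Thy1 had higher means with KPC1 and clones H, T and V than in the mono-culture. The part of the fibroblast markers in the members' differences was not tested.

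In the count of calls, clone H had 7 members higher and 2 lower, where 27.8% of all genes tested were called higher and 26.4% lower. KPC1 had 6 higher and 2 lower, against 30.5% and 28.5% of all genes. Clone T had 6 higher and 2 lower against 25% and 24.7%, and clone V had 5 higher and 2 lower against 29.4% and 28.9%. Clone E had 4 higher, where 16.5% of all genes were higher and 15.5% lower. Clone K had 3 higher against 10.4% and 8.69%, clone M had 2 higher against 12.2% and 10.8%, and clone N had 2 higher against 19.7% and 19.2%. With clones E, K, M and N no member was called lower by edgeR, by DESeq2 or by limma on log2(RPKM + 1), and 0 were lower at an unadjusted p under 0.05. The median log2 fold change of the 10 members ran from 0.17 with clone M to 0.54 with clone H, whereas that of all genes tested lay between -0.01 and 0.01 in each co-culture.

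Where the 4 libraries of a co-culture are said to lie above or below the mono-culture, they lay beyond all 4 of its libraries. Of all genes tested this held above and below for 18.1% and 19.1% with clone E, 26.1% and 25.3% with clone H, 14.2% and 14.6% with clone K, and 15.1% and 16.9% with clone M. It held for 20.2% and 20.4% with clone N, 24% and 24.9% with clone T, 25.8% and 26.4% with clone V, and 27.4% and 26.2% with KPC1.

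**Figure D1:**
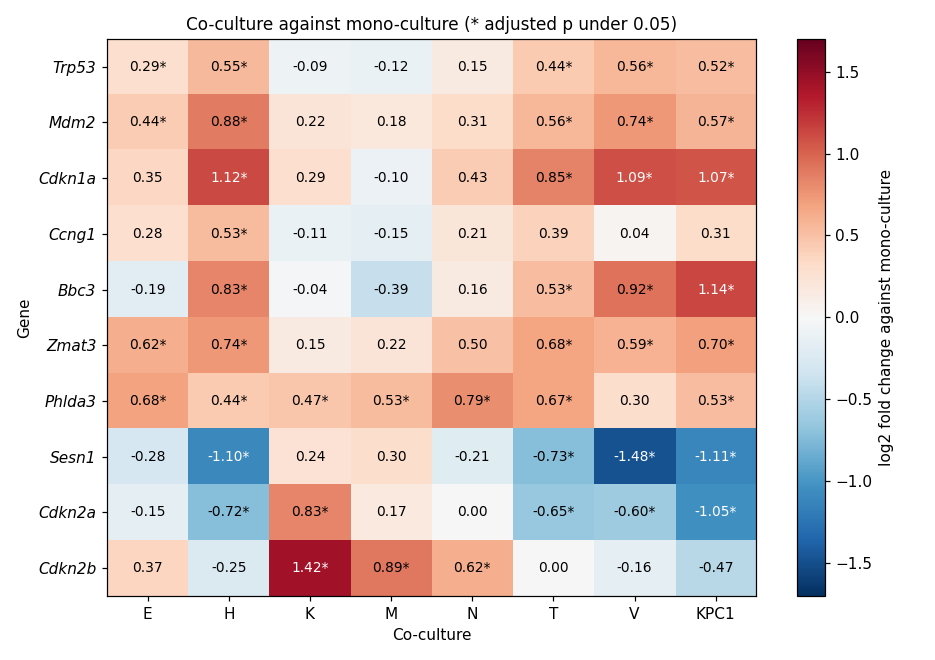
Each cell gives the log2 fold change of a gene (rows) in a co-culture (columns) against the mono-culture from edgeR, with a star where the adjusted p is under 0.05. The columns of clones H, T and V and of KPC1 share starred rises of Trp53, Mdm2, Cdkn1a, Bbc3 and Zmat3 and starred falls of Sesn1 and Cdkn2a, and the starred rise of Cdkn2b stands in the columns of clones K, M and N.

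Trp53 RNA itself differed between co-cultures over a narrow range. In the 4 mono-culture libraries, in the order of their replicate numbers, it was at 157, 199, 174 and 175 CPM. With clone V it was at 287, 246, 244 and 261 CPM, and with clone H at 245, 281, 284 and 225 CPM. All 4 libraries of clones H, T and V and of KPC1 lay above the mono-culture, while those of clone K, at 156 to 181 CPM, and of clone M, at 149 to 182 CPM, overlapped it. The log2 fold change was 0.56 ± 0.10 (SE) with clone V (edgeR adjusted p = 1.09e-05), 0.55 ± 0.10 with clone H, 0.52 ± 0.10 with KPC1, 0.44 ± 0.10 with clone T and 0.29 ± 0.10 with clone E (edgeR adjusted p = 0.0210). The rise with clone E lost its call without mono-culture replicate 1 (edgeR adjusted p = 0.115), mono-culture replicate 4 (0.0522) or clone E replicate 1 (0.146). The mean of Trp53 ran from 162 CPM with clone M to 259.8 CPM with clone V, a ratio of 1.60, and no neighbours in that order of 9 groups differed. Trp53 lies on chromosome 11, positions 69580359 to 69591873 of mm10, plus strand (GENCODE M21).

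Mdm2, the ubiquitin ligase that limits p53, was higher on average in all 8 co-cultures than in mono-culture, and 30 of the 32 co-culture libraries lay above every mono-culture library. The mono-culture libraries held 101, 113, 109.5 and 113 CPM. Those of clone H held 170.3, 265, 213 and 156 CPM, and those of clone T 159.8, 165, 169 and 152 CPM. Clone H had the widest spread and the highest mean, 201 ± 48.8 CPM (SD, n = 4), yet its lowest library was above the mono-culture. The log2 fold change was 0.88 ± 0.14 with clone H (edgeR adjusted p = 2.79e-06), 0.74 ± 0.14 with clone V, 0.57 ± 0.14 with KPC1, 0.56 ± 0.14 with clone T and 0.44 ± 0.14 with clone E. It was not called with clones N (0.31, edgeR adjusted p = 0.0638), K (0.22) and M (0.18). One library of KPC1, replicate 3 at 201.5 CPM, stood apart from the other 3 at 148 to 151 CPM. Without mono-culture replicate 1 the call with clone E was lost (edgeR adjusted p = 0.0546). Mdm2 lies on chromosome 10, 117688875 to 117710758, minus strand.

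Cdkn1a encodes p21, the inhibitor of cyclin-dependent kinases that is the best known p53 target. It was at 92.6, 127, 109 and 118 CPM in the mono-culture. With clone H it was at 185, 353, 287 and 149 CPM, and with clone V at 279.9, 227, 237 and 211 CPM. KPC1 gave 224, 242, 278 and 197 CPM, and clone T 171, 246, 210.2 and 177 CPM, so that none of the 16 libraries of these 4 co-cultures overlapped the mono-culture. The log2 fold change was 1.12 ± 0.23 with clone H, a 2.18-fold difference (edgeR adjusted p = 0.000136), 1.09 ± 0.23 with clone V, 1.07 ± 0.23 with KPC1 and 0.85 ± 0.23 with clone T. Clone N had all 4 libraries above the mono-culture, at 131 to 169.6 CPM, but its change of 0.43 ± 0.23 did not pass the test (edgeR adjusted p = 0.132). Clone E ranged from 78.8 to 189 CPM, on both sides of the mono-culture, and clone M, at 85.7 to 120.4 CPM, had the lowest mean, 104 ± 14.3 CPM. Of the 28 pairs of co-cultures 14 differed, and the widest pair was clone H above clone M, by 1.22 ± 0.23 (edgeR adjusted p = 5.49e-05).

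Cdkn1a lies on chromosome 17, 29090976 to 29100727, plus strand, and 273 of its 3553 exonic bases (7.68%) are shared with AC167363.2 on the opposite strand. The libraries were strand specific, but whether the counting used the strand is not given in the sources used here, so reads from the shared stretch may belong to either gene.

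p53 binds a sequence of 20 bases, the p53 response element, made of a pair of 10-base half-sites. The closest match without a spacer was searched in RefSeq promoters of mm10 (GRCm38.p6), each covering 250 bases before to 50 after a transcript start, of which 9 of the 10 genes had 14 entries and Zmat3 had none. The element reads the same on both strands, so 1 scan covers both. Upstream of the first start of Cdkn1a and of Ccng1 the best match had 1 mismatch, a degree found in 0.0883% of 32851 promoters. Trp53, the first start of Bbc3 and the second start of Sesn1 had 3 mismatches, which 6.29% of promoters reach. The other starts of Cdkn1a, Bbc3 and Sesn1 and the other members had 5 or 6, which 76.6% and 98.5% reach. These shares are per promoter, so a gene with several starts had more than 1 chance to reach a given degree. A match describes the letters and is not a binding site, and no match says only that these letters are not in this window. The stretches around the best matches of 4 members are shown to set the 2 closest matches beside another target that was called higher (Bbc3) and the target that was called lower (Sesn1), with the 20 bases of the match in capitals.
Cdkn1a, chr17:29090888-29090978, plus strand, match 51 to 32 bases before the start: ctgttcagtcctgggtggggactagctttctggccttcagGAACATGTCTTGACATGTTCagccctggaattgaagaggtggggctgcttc
Ccng1, chr11:40755422-40755521, minus strand, match 195 to 176 bases before the start: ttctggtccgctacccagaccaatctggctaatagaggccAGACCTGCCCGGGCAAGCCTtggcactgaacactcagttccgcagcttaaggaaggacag
Bbc3, chr7:16309446-16309545, plus strand, match 97 to 78 bases before the start: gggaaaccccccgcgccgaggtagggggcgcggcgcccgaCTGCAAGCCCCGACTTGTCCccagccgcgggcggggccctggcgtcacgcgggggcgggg
Sesn1, chr10:41887226-41887325, plus strand, match 173 to 154 bases before the second start: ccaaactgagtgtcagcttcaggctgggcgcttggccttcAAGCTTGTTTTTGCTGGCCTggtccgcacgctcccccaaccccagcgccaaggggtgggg

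Ccng1 encodes cyclin G1, a p53 target that recruits a phosphatase to Mdm2. Its promoter window held 1 of the 2 closest matches, and a link between match and change was not tested. Ccng1 was called in a single co-culture, the one with clone H, by 0.53 ± 0.20 (edgeR adjusted p = 0.0240). The mono-culture libraries held 143, 173, 136 and 163 CPM, and those of clone H 177, 318, 226 and 170.2 CPM, so that the lowest library of clone H was inside the range of the mono-culture. This call was lost without mono-culture replicate 1 (edgeR adjusted p = 0.0641), mono-culture replicate 3 (0.0562) or clone H replicate 2 (0.189), and also without scaling (0.0530) and by limma (0.0733 to 0.0749). With clone T all 4 libraries, at 192 to 219 CPM, lay above the mono-culture, and the change was 0.39 ± 0.20 (edgeR adjusted p = 0.103). Of the 28 pairs of co-cultures 4 differed. The gene lies on chromosome 11, 40748552 to 40755311, minus strand.

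Bbc3 encodes Puma, which promotes apoptosis by binding anti-apoptotic members of the Bcl2 family. It was the RNA with the fewest counts, 101 to 597 per library. The mono-culture held 9.85, 12.9, 10.9 and 13.85 CPM. KPC1 held 31.5, 31.2, 25.3 and 17.05 CPM, and clone V 24.3, 23.1, 23.97 and 18.55 CPM. All 4 libraries of KPC1 and of clones H, T and V were above the mono-culture, while 2 of the 4 of clone M and 1 each of clones E and K were below it. The log2 fold change was 1.14 ± 0.20 with KPC1, a 2.21-fold difference (edgeR adjusted p = 9.41e-06), 0.92 ± 0.19 with clone V, 0.83 ± 0.19 with clone H and 0.53 ± 0.20 with clone T (edgeR adjusted p = 0.0239). The last of these was lost without mono-culture replicate 1 (edgeR adjusted p = 0.0879), mono-culture replicate 3 (0.0540), clone T replicate 2 (0.0568) or clone T replicate 4 (0.0508). Clone M, at -0.39 ± 0.20, was not called. Bbc3 lies on chromosome 7, 16308393 to 16318205, plus strand.

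Zmat3 encodes an RNA-binding zinc-finger protein that is among the most regular p53 targets across cell types. It stood at 51.4, 58.0, 51.9 and 57.6 CPM in the mono-culture, at 91.6, 111, 104 and 59.6 CPM with clone H, and at 92.4, 85.4, 107 and 70.4 CPM with KPC1. All 4 libraries of clones H, N, T and V and of KPC1 were above the mono-culture, clone H by little in replicate 4. The rise was 0.74 ± 0.21 with clone H (edgeR adjusted p = 0.00310), 0.70 ± 0.21 with KPC1, 0.68 ± 0.21 with clone T, 0.62 ± 0.21 with clone E and 0.59 ± 0.21 with clone V, and with clone N the change of 0.50 ± 0.21 did not pass (edgeR adjusted p = 0.0549). With the replicate number as a block, a pairing that the labels do not give, clone N passed (edgeR adjusted p = 0.00998). The call with clone E was lost without mono-culture replicate 1 (edgeR adjusted p = 0.0630), clone E replicate 1 (0.0667) or clone E replicate 2 (0.0787), and that with clone V without clone V replicate 1 (0.0686). Replicate 4 was the lowest library in 8 of the 9 groups for Zmat3, in 7 for Bbc3 and in 5 each for Cdkn1a and Mdm2. It was the lowest in 4 each for Trp53, Cdkn2b and Phlda3, in 3 each for Cdkn2a and Ccng1 and in 1 for Sesn1. This was not counted over all genes. The labels name no date or batch. The serial numbers in the sample titles run through the co-cultures replicate by replicate, with the mono-culture last, and their meaning is not given. Beside the fit with the replicate number as a block, leaving out replicate 4 of each group kept all 5 calls of Zmat3, with log2 fold changes of 0.69 (clone V) to 0.92 (clone H). Zmat3 lies on chromosome 3, 32334792 to 32366014, minus strand.

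Phlda3 encodes a small protein with a pleckstrin homology domain that restrains Akt. Every one of the 32 co-culture libraries, at 43.2 to 82.75 CPM, lay above all 4 mono-culture libraries, at 36.3, 41.9, 39.1 and 41.9 CPM. Clone N stood at 69.1, 68.8, 74.2 and 63.8 CPM and clone V, the lowest co-culture, at 47.4, 47.4, 46.3 and 55.2 CPM. The rise was 0.79 ± 0.13 with clone N, a 1.73-fold difference (edgeR adjusted p = 1.90e-05), 0.68 ± 0.13 with clone E and 0.67 ± 0.13 with clone T. It was 0.53 ± 0.13 with both clone M and KPC1, 0.47 ± 0.13 with clone K and 0.44 ± 0.13 with clone H, and with clone V the difference of 0.30 ± 0.13 missed the threshold (edgeR adjusted p = 0.0528). The call with clone K was lost without mono-culture replicate 1 (edgeR adjusted p = 0.0505). Among the p53 targets its order of co-cultures was unlike that of Cdkn1a: over the 36 libraries the Pearson r of log2 CPM was 0.32 between Phlda3 and Cdkn1a and 0.12 between their 9 group means, against 0.69 within groups. The co-cultures with the highest and lowest median sum of epithelial markers were also clones N and V, at 516 and 81.2 CPM. In clone K the library with the highest epithelial sum, replicate 4, had the lowest Phlda3. The relation of Phlda3 to epithelial RNA was not tested. Phlda3 lies on chromosome 1, 135766119 to 135769136, plus strand.

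Sesn1 encodes a sestrin, a stress-induced protein that restrains mTORC1. Unlike the other targets it was called lower, with clones H, T and V and with KPC1. Its Pearson r with the other targets over the 36 libraries ran from -0.86 (Bbc3) to 0.02 (Phlda3). The mono-culture held 53.2, 54.5, 58.8 and 51.6 CPM. Clone V held 13.3, 20.5, 20.3 and 24.2 CPM, clone H 25.3, 21.5, 21.8 and 33.2 CPM, and KPC1 22.3, 22.8, 25.1 and 30.7 CPM. The 24 libraries of clones E, H, N, T and V and of KPC1 were all below the mono-culture. Sesn1 fell by 1.48 ± 0.16 on the log2 scale with clone V (edgeR adjusted p = 3.50e-09), by 1.11 ± 0.15 with KPC1, by 1.10 ± 0.15 with clone H and by 0.73 ± 0.15 with clone T. With clones E and N the differences of -0.28 ± 0.15 and -0.21 ± 0.15 were not called, and with clones K and M the values were 0.24 ± 0.15 and 0.30 ± 0.15, also not called. Sesn1 was the member with the most pairs of co-cultures that differed, 20 of 28, of which the widest was clone M above clone V, by 1.78 ± 0.16 (edgeR adjusted p = 2.52e-10). It lies on chromosome 10, 41809935 to 41908424, plus strand.

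**Figure D2:**
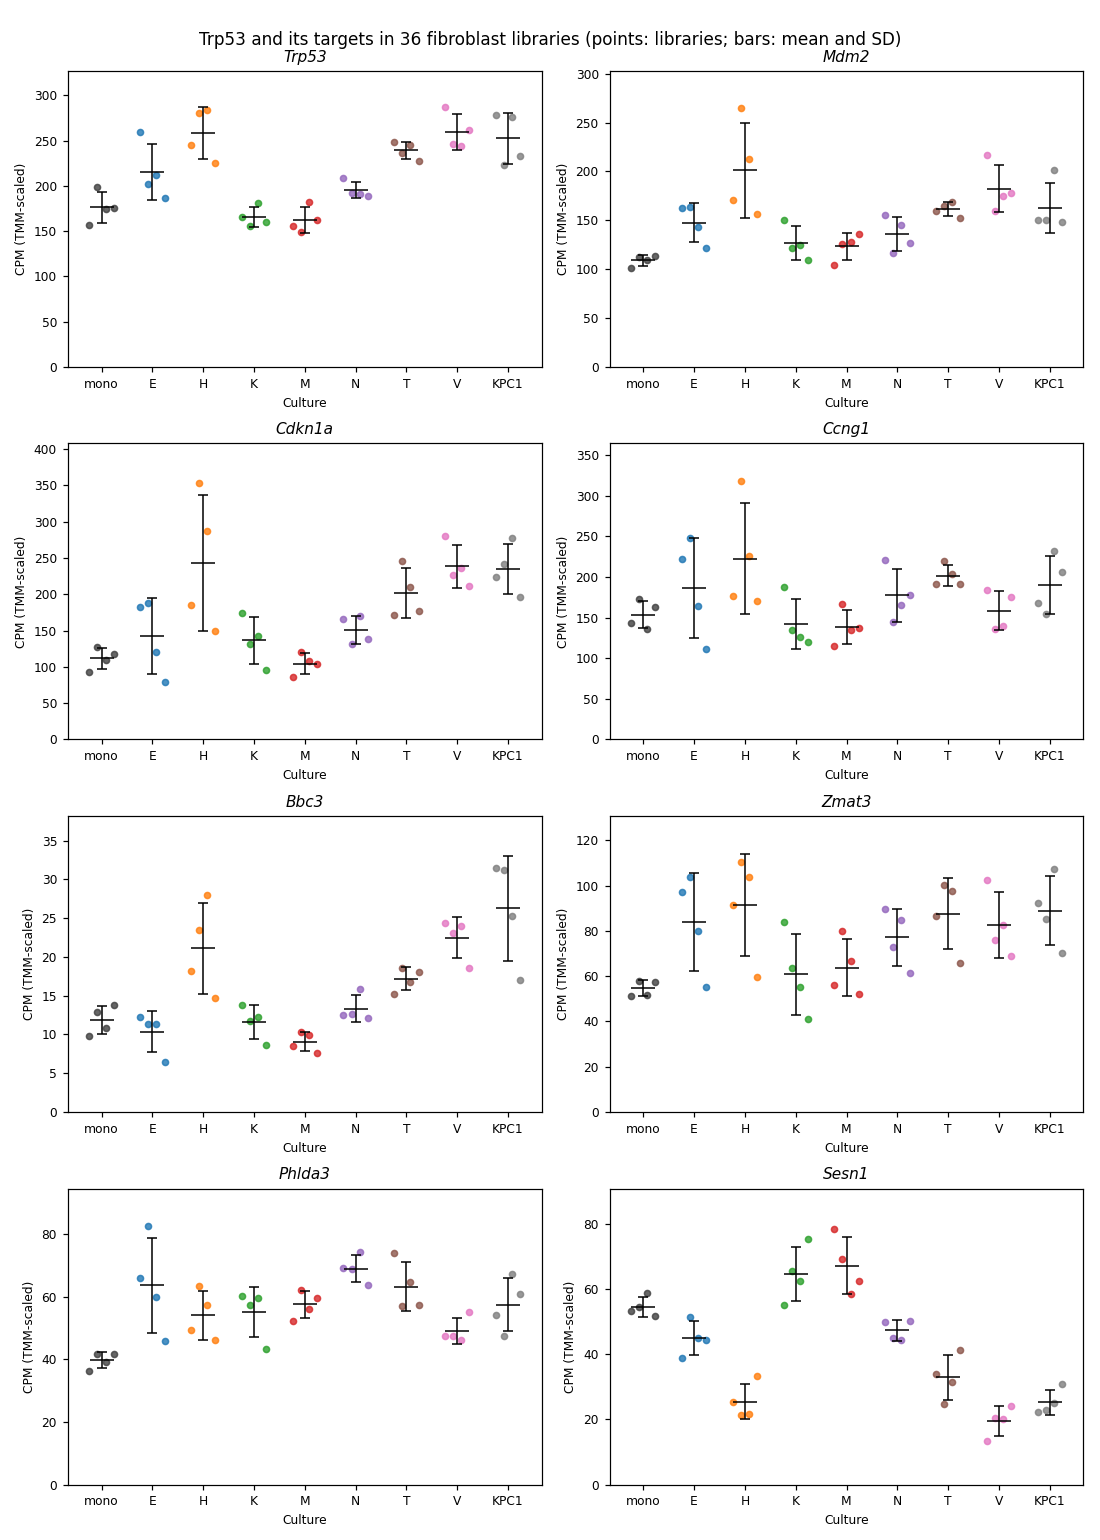
CPM of Trp53 and 7 of its known targets (1 panel each, axes from 0) in the 9 cultures, with 1 point for each of the 4 libraries in the order of replicate number and the mean with its SD in black. Cdkn1a, Mdm2 and Bbc3 are highest with clones H and V and with KPC1, Phlda3 is above the mono-culture in all 32 co-culture libraries, and Sesn1 is lowest in those 3 co-cultures.

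The inhibitors Cdkn2a and Cdkn2b were highest with clone K and lowest with KPC1. Cdkn2a was at 589.5, 628, 610 and 602 CPM in the mono-culture. With clone K it was at 1022, 1207, 1159 and 925 CPM, and with KPC1 at 289.7, 302, 275 and 308 CPM. The 4 libraries of clone K were above the mono-culture and the 16 libraries of clones H, T and V and of KPC1 were below it, whereas clones E, M and N lay on both sides. Cdkn2a rose by 0.83 ± 0.16 with clone K (edgeR adjusted p = 0.000441) and fell by 1.05 ± 0.17 with KPC1 (edgeR adjusted p = 2.78e-06), by 0.72 ± 0.16 with clone H, by 0.65 ± 0.16 with clone T and by 0.60 ± 0.16 with clone V. Clone K was above each of the 7 other co-cultures in the pairwise tests, and in the order of the 9 groups it differed from its neighbour clone M (edgeR adjusted p = 0.0236), as clone E did from clone V (edgeR adjusted p = 0.0264). Both of these calls of Cdkn2a between neighbours were lost without any 1 of 4 libraries: for clone K and clone M these were clone K replicates 2 and 3 and clone M replicates 3 and 4 (edgeR adjusted p = 0.0738 to 0.152), and for clone E and clone V they were clone E replicates 1 and 2 and clone V replicates 1 and 3 (0.0832 to 0.145). The count of Cdkn2a sums the transcripts of p16Ink4a and of Arf, which start at separate promoters, so which of them changed cannot be read from it. The gene lies on chromosome 4, 89274471 to 89294653, minus strand.

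Cdkn2b encodes p15Ink4b, a Cdk4 and Cdk6 inhibitor known to be induced by transforming growth factor beta. It was at 154, 177, 178 and 159.7 CPM in the mono-culture, at 394, 493, 545 and 361 CPM with clone K, at 349, 370.4, 227 and 291 CPM with clone M and at 324, 246, 262 and 194 CPM with clone N. None of these 12 co-culture libraries overlapped the mono-culture. The rise was 1.42 ± 0.23 with clone K, a 2.69-fold difference (edgeR adjusted p = 3.10e-05), 0.89 ± 0.22 with clone M and 0.62 ± 0.22 with clone N (edgeR adjusted p = 0.0274). That with clone N was lost without mono-culture replicate 1 (edgeR adjusted p = 0.0812), mono-culture replicate 4 (0.0695), clone N replicate 1 (0.124) or clone N replicate 3 (0.0502), and with no filter on low counts (0.0524). All 4 libraries of KPC1, at 108 to 145 CPM, were below the mono-culture, and the change of -0.47 ± 0.22 did not pass (edgeR adjusted p = 0.0716). With clone T the level was that of the mono-culture, 167 ± 42.0 against 167 ± 12.04 CPM (SD, n = 4 each). Cdkn2b lies on chromosome 4 beside Cdkn2a, 89306299 to 89311039, minus strand.

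**Figure D3:**
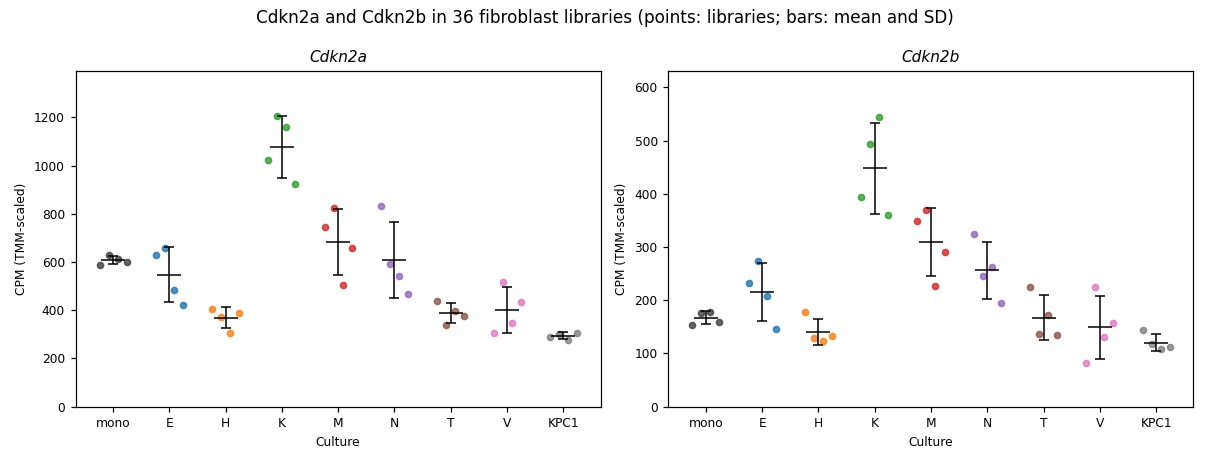
CPM of Cdkn2a (left) and Cdkn2b (right) in the 9 cultures, axes from 0, with 1 point per library and the mean with its SD in black. Clone K is highest for both, at means of 1078 and 448 CPM, and KPC1 lowest, at 294 and 120.5 CPM.

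Across the 36 libraries Cdkn2a and Cdkn2b varied together, with a Pearson r of log2 CPM of 0.92 over libraries, 0.94 over the 9 group means and 0.87 within groups. Cdkn1a varied with Bbc3 (0.905), Mdm2 (0.90) and Zmat3 (0.83), and the within-group values were 0.78, 0.87 and 0.87. Sesn1 and Trp53 were the most opposed pair, at -0.90 over libraries and -0.97 over group means. Trp53 and Cdkn2a were at -0.78 over libraries and at -0.06 within groups, so their opposition was between the groups and not between libraries of a group. These values describe 36 libraries that fall into 9 groups and share a sequencing scale. They carry no test.

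**Figure D4:**
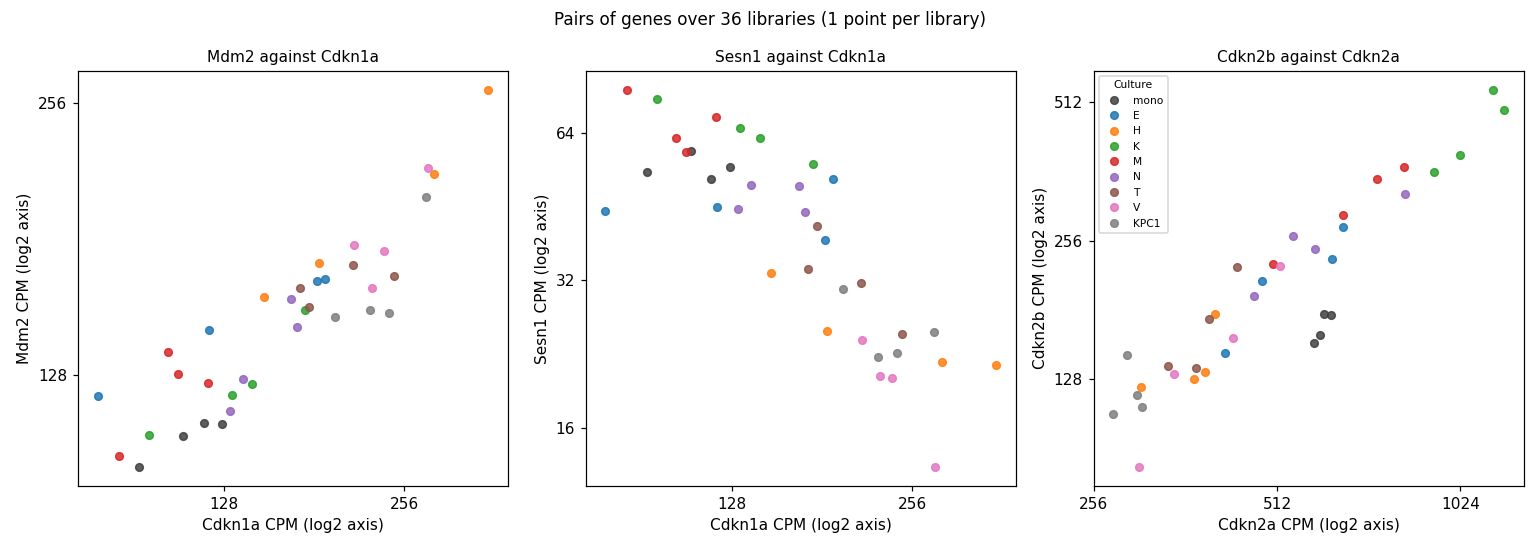
Each point is 1 of 36 libraries, coloured by culture, with CPM on log2 axes: Mdm2 against Cdkn1a, Sesn1 against Cdkn1a and Cdkn2b against Cdkn2a. Mdm2 rises with Cdkn1a (Pearson r of 0.90), Sesn1 falls with it (-0.85), and Cdkn2b rises with Cdkn2a (0.92), the 4 mono-culture libraries standing below the co-culture libraries of like Cdkn2a.

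Of the genes tested, those with the pattern most like that of Cdkn1a over the 36 libraries were Zfp365 (Pearson r of 0.93), Slc19a2 (0.92), which encodes a thiamine transporter, and Tars (0.91), which encodes threonyl-tRNA synthetase. For Mdm2 they were Slc19a2 (0.91), Cdkn1a itself (0.90) and Nup107 (0.89), a nuclear pore gene. For Trp53 they were Ruvbl2 (0.93), Xrn2 (0.93) and Nup62 (0.93). Cdkn1a was the member closest to Trp53, Mdm2, Bbc3 and Zmat3, and Zmat3 the member closest to Ccng1 (0.76) and Phlda3 (0.56). The member closest to Sesn1 was Cdkn2a, at 0.815 over libraries and 0.87 over the 9 group means.

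Whether the response depended on the clone was tested among the 7 clonal co-cultures by an F-test. Of the 10 members 9 differed among the clones, where 67.5% of all genes tested did, with adjusted p from 7.66e-11 for Sesn1 to 0.0230 for Phlda3 by edgeR. Zmat3 did not pass (edgeR adjusted p = 0.0721, and 0.00289 with the replicate number as a block). Of the 280 pairwise tests of members between co-cultures 123 were called, where 27.5% of such tests over all genes were, from 4 of 28 for Ccng1 and for Phlda3 to 19 for Cdkn2a and 20 for Sesn1. In 6 of the 28 pairs edgeR called no member: clone E and clone N, and each pair among clone H, clone T, clone V and KPC1 other than clones T and V. The share of all genes called was 1.27% between clones E and N, 0.388% between clones H and V, 7.58% between clones H and T, and 2.89%, 5.36% and 10.7% between KPC1 and clones H, T and V. At an unadjusted p under 0.05 these pairs had 0 members (clones E and N) to 4 (clone T and KPC1), limma called 0 in each of the 6, and DESeq2 called 1 each in clone T and in clone V against KPC1.

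Averaged over the 7 clonal co-cultures, 6 members were higher than in the mono-culture and 1 was lower, where 24.3% of all genes tested were higher and 24.9% lower. Cdkn1a was higher by 0.58 ± 0.18, Phlda3 by 0.56 ± 0.11, Zmat3 by 0.50 ± 0.16, Mdm2 by 0.48 ± 0.11, Cdkn2b by 0.41 ± 0.17 and Trp53 by 0.26 ± 0.07. Sesn1 fell by 0.46 ± 0.11. The edgeR adjusted p was 6.21e-05 for Phlda3 and 0.0494 for Cdkn2b, and the call of Cdkn2b was lost under 26 of the 36 fits that left out 1 library. Mono-culture replicate 1 was the lowest of the mono-culture libraries in Trp53, Cdkn1a, Cdkn2a, Cdkn2b, Mdm2, Bbc3, Zmat3 and Phlda3. Without it 4 of the 7 calls remained, and Trp53 (edgeR adjusted p = 0.0661), Cdkn1a (0.0566) and Cdkn2b (0.148) were not among them.

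KPC1 was set against the mean of the 7 clonal co-cultures, where 22.3% of all genes tested were higher and 18.8% lower. Bbc3 was higher by 0.88 ± 0.14 (edgeR adjusted p = 9.79e-06), Cdkn1a by 0.50 ± 0.16 (0.0158) and Trp53 by 0.26 ± 0.07. The call of Cdkn1a was lost without KPC1 replicate 3 (edgeR adjusted p = 0.0920). Cdkn2a fell by 0.89 ± 0.13, Cdkn2b by 0.88 ± 0.18 and Sesn1 by 0.65 ± 0.12. Mdm2, Ccng1, Zmat3 and Phlda3 did not pass, at differences of -0.03 to 0.20.

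Other known p53 targets were read from a list of 27 genes. Averaged over the clones 12 were higher and none was lower by edgeR or DESeq2 (0 at an unadjusted p under 0.05, and 1 by limma), and 15 were not called, with a median log2 fold change of 0.03 over the list and 0.01 over all genes tested. Fas, the death receptor, was at 5.14 ± 0.886 CPM in the mono-culture and at means of 9.28 (clone V) to 20.6 CPM (clone N) in co-cultures, higher in all 8, by 1.24 ± 0.16 over the clones. Clones V and N also had the lowest and highest median sum of epithelial markers among the co-cultures, and the relation to Fas was not tested. Pmaip1, which encodes the apoptosis promoter Noxa, went from 5.77 ± 0.375 CPM to 27.3 ± 0.583 CPM with clone V and 5.97 ± 1.88 CPM with clone M (1.22 ± 0.17), and the kinase gene Plk3 was higher by 1.07 ± 0.17. Perp, which is also a desmosomal gene of epithelia, did not exceed 2 counts in any library of the mono-culture and reached 1.29 CPM with clone T. Bax, Rrm2b, Tigar, Xpc and Ppm1d, named here after their values were seen, were among those not called, at -0.01 to 0.03. Of the 27 genes 15 were higher with clone H, 14 with KPC1, 12 with clone V and 11 with clone T, where 27.8%, 30.5%, 29.4% and 25% of all genes tested were higher. Clone N had 10 higher and clone E 9, against 19.7% and 16.5% of all genes. Clone M had 5 higher and 4 lower and clone K 1 higher and 1 lower, against 12.2% and 10.4% of all genes higher and 10.8% and 8.69% lower.

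The list of stress genes that both the transcription factor ATF4 and p53 can induce held Sesn2, Gdf15, Ddit4, Ddit3, Trib3 and Atf3, all of them tested. All 6 were higher with clones H and V, 5 with KPC1 and 3 with clone T, where 27.8%, 29.4%, 30.5% and 25% of all genes tested were higher. None was higher with clones E, K, M and N by edgeR, DESeq2 or limma, nor at an unadjusted p under 0.05, and 1 (clone E) and 2 (clone M) were lower. Gdf15, a stress cytokine gene, is named here after its values were seen. Over the clones it was the 1 of the 6 that was called, by 1.20 ± 0.23, and its change ran from -0.18 ± 0.28 with clone M, which was not called, to 2.84 ± 0.29 with clone V. Trib3, named here after its values were seen, encodes a pseudokinase induced in nutrient stress. It was higher by 1.40 ± 0.25 with KPC1 and fell by 1.46 ± 0.26 with clone M. Sesn2, a sestrin gene related to Sesn1 and likewise named after its values were seen, was higher by 0.63 ± 0.20 with clone H and by 0.65 ± 0.20 with clone V, where Sesn1 fell.

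From the list of other p53 targets the growth arrest gene Gadd45a, also named after its values were seen, was higher by 1.37 ± 0.24 over the clones. Its change was 3.05 ± 0.30 with KPC1, 2.92 ± 0.30 with clone V, 2.60 ± 0.30 with clone H, 2.34 ± 0.30 with clone T and 1.45 ± 0.29 with clone N, and it was not called with clones E (0.70 ± 0.29, edgeR adjusted p = 0.0631), K and M. The co-cultures with the largest rises of Gadd45a were those in which Cdkn1a and Bbc3 were called higher.

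Among 13 tested genes of the p53 family and its regulators, 5 were higher and 3 lower over the clones, where 24.3% and 24.9% of all genes tested were. Mdm4, an inhibitor of p53 related to Mdm2, was higher by 0.43 ± 0.13, and Hipk2, a kinase of p53, by 0.50 ± 0.14. Usp7, a deubiquitinase of Mdm2, was higher by 0.22 ± 0.06. Rchy1, a ubiquitin ligase of p53, was lower in all 8 co-cultures, by 0.53 over the clones.

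Of the 4 other inhibitors of cyclin-dependent kinases on the list, 3 were lower over the clones, where 24.9% of all genes tested were, and none was higher by edgeR, DESeq2 or limma, nor at an unadjusted p under 0.05, with a list median of -0.64. Cdkn1c, which encodes p57, fell from 19.3 ± 1.86 CPM in the mono-culture to between 1.56 ± 0.186 CPM with KPC1 and 4.88 ± 1.45 CPM with clone K, lower in all 8 co-cultures and by 2.83 ± 0.16 over the clones (edgeR adjusted p = 1.81e-14 for Cdkn1c). Cdkn2c, which encodes p18, fell from 153 ± 8.47 CPM to 64.7 ± 7.99 CPM with KPC1 and 115 ± 16.9 CPM with clone K, by 0.86 ± 0.09 over the clones. Cdkn1b, which encodes p27, fell by 0.41 ± 0.09 and was lower in 5 of 8 co-cultures.

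Of 15 genes of the G1 phase, 6 were higher and 2 lower over the clones, against the same 24.3% and 24.9%. The cyclin D genes Ccnd1 and Ccnd2 and their partner Cdk6 were higher by 1.47 ± 0.25, 0.93 ± 0.14 and 1.09 ± 0.21, and E2f3, a transcription factor gene of S phase entry, by 0.46. Ccnd1 went from 76.8 ± 13 CPM in the mono-culture to means of 127 (clone K) to 347 CPM (clone T). Of 23 proliferation genes 2 were higher and 6 lower over the clones, where 24.3% and 24.9% of all genes tested were, and Ccnb2, Mcm5, Birc5 and Mcm6 fell by 0.57, 0.51, 0.39 and 0.34. Clone V had 9 of the 23 higher and 1 lower, against 29.4% and 28.9% of all genes. Clone K had 10 lower, against 8.69% of all genes, and 0 higher, the latter by edgeR, DESeq2 and limma and at an unadjusted p under 0.05. The count over the clones was 5 in place of 8 without mono-culture replicate 2 or without mono-culture replicate 3.

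**Figure D5:**
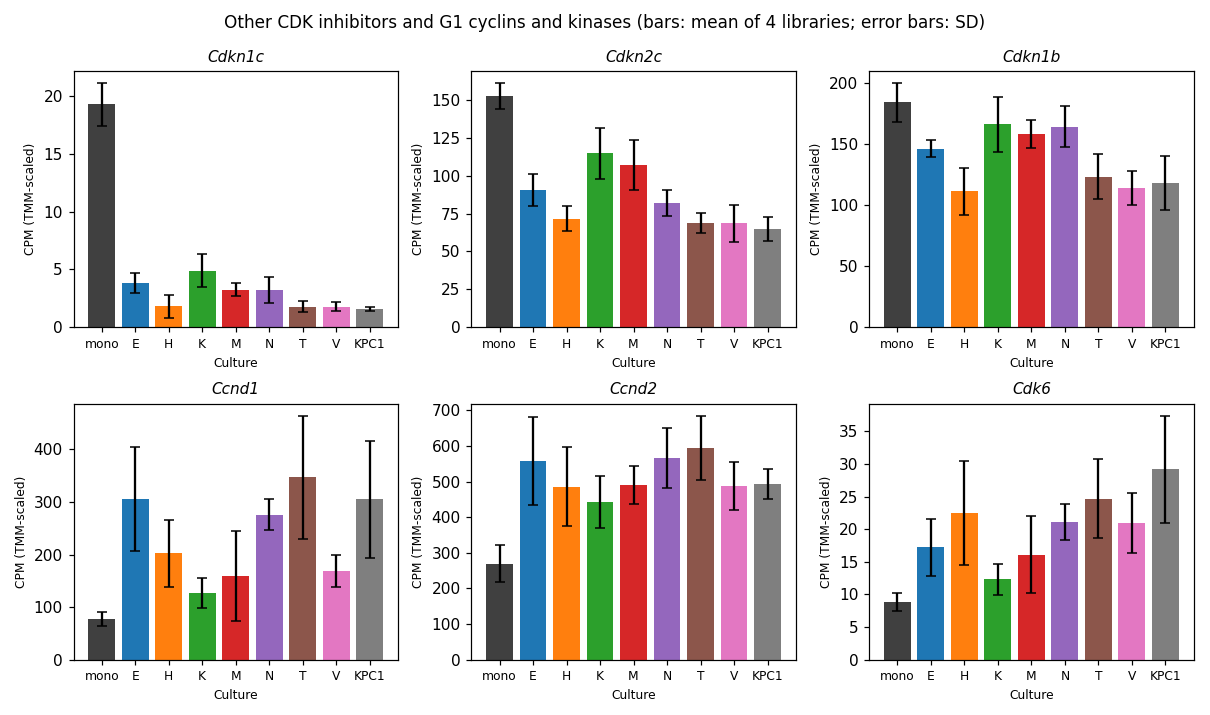
Bars give mean CPM over 4 libraries, from 0, with the SD, of 3 other kinase inhibitor genes (Cdkn1c, Cdkn2c, Cdkn1b) and 3 genes of the G1 phase (Ccnd1, Ccnd2, Cdk6) in the 9 cultures. The mono-culture has the highest Cdkn1c, at 19.3 CPM, and Cdkn2c, at 153 CPM, and the lowest Ccnd1, at 76.8 CPM.

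Of 10 genes known to repress the Cdkn2a locus, 2 were higher and 4 lower over the clones, where 24.3% and 24.9% of all genes tested were. Tbx2 was higher by 2.18 ± 0.40, from 0.50 ± 0.16 CPM in the mono-culture to 7.43 ± 6.2 CPM with clone N, and Ezh2 and Tbx3 fell by 0.24 and 0.35. Clone N, with the highest mean Tbx2, had Cdkn2a at 609 ± 157 CPM against 607 ± 16.4 CPM in the mono-culture. The relation of Tbx2 to Cdkn2a was not tested.

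Epithelial RNA moved with co-culture. Of the 14 epithelial markers 8 were tested, and 6 of these were higher over the clones, where 24.3% of all genes tested were. Among them were Krt8, Krt18, Krt19 and Elf3, and Krt8 and Krt18 reached 156 and 281 CPM in the co-cultures where each was highest. Over the clones the fibroblast markers Fap, Pdgfrb and Thy1 were higher, by 5.13, 0.93 and 0.52. Of the other markers Cd68 was higher and Lyz2 and Tek were lower. The part of these markers in the members' differences was not tested. The median epithelial sum was 516 CPM with clone N, 463 with clone T, 344 with clone E, 325 with KPC1, 225 with clone M, 166 with clone H, 141 with clone K and 81.2 with clone V. The sum also varied between libraries of a group, from 20.4 to 322 CPM within clone K and from 55.0 to 538 CPM within clone M.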

How the data were processed

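Poly(A) RNA of 36 fibroblast libraries was sequenced as 76 bp paired ends, strand specific. Per the labels, the authors aligned reads to mm10 with STAR, counted them with featureCounts and used edgeR, with no versions given. They deposited raw read counts for 39017 genes and RPKM values for 37746, and RPKM was used here for levels per length and for limma. The counting strand and annotation are not given in the sources used here. No column of another sample was present.

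The count table was fitted whole with edgeR 4.0.16 in R 4.3.3 (filterByExpr, TMM, robust quasi-likelihood, 1 coefficient per group, 39 tests a fit), with Benjamini-Hochberg adjustment over 14439 genes and a threshold of 0.05. DESeq2 1.42.0, limma 3.58.1 on log2(RPKM + 1) or log2(RPKM + 0.1), other scalings and filters, a replicate block and leaving out libraries served as alternatives. The steps were tested on simulated data with 200 changed genes. Library totals of 12532122 to 21985538 counts limit the precision. No 2 libraries of a group agreed within counting noise (lowest chi-square per degree of freedom 5.48 over 54 pairs). Correlations used log2 CPM with a prior count of 1. Coordinates came from GENCODE M21, promoters from RefSeq (GRCm38.p6).

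The members and lists were chosen with earlier results of these data known. Named were all members and, from each other list, up to 4 called genes with the largest mean clonal change and 1 sign in the 7 clones. The 3 genes most like Cdkn1a, Mdm2 and Trp53 in log2 CPM, and the member most like each other member, were also named, and genes outside this rule are marked as named after their values were seen.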

Additional observations from a re-analysis of the deposited data

Results flagged for a closer look

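In 5 of the 90 sets of 4 libraries (10 genes in 9 cultures) 1 library stood apart from the other 3 by more than Dixon's 95% critical value for 4 values, and chance alone gives about 4.5 such sets, 1 in 20. The gap divided by the range was 0.953 for Mdm2 with KPC1, 0.837 for Bbc3 with clone E, 0.845 for Bbc3 with clone N, 0.836 for Phlda3 with clone K and 0.872 for Phlda3 with clone V. Leaving out the library that stood apart changed no call of Mdm2 with KPC1.

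The fold change against mono-culture differed among the 7 clones for 9 of the 10 members in edgeR's F-test. The adjusted p was 9.7e-08 for Trp53, 8.5e-05 for Mdm2, 9.1e-05 for Cdkn1a, 0.02 for Ccng1, 8.1e-07 for Bbc3, 0.023 for Phlda3, 7.7e-11 for Sesn1, 2.8e-09 for Cdkn2a and 2.8e-07 for Cdkn2b. The 7 clones share the 4 mono-culture libraries, and the test compares the clones with each other.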

How the results depend on the processing

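The 43 calls of members in single co-cultures were set against 2021 alternative values: 1997 kept the call, 24 lost it, over 8 of the 43 results, and 0 reversed. Of these 8 results all but Zmat3 with clone V lost the call without mono-culture replicate 1. Of 6256 values for the calls in pairs of co-cultures, in the mean of the clones and in KPC1 against it, 292 lost the call and 0 reversed. The causes of the lost calls were not tested. The alternatives included a looser threshold on the adjusted p, which cannot lose a call. For a single co-culture or a pair, most libraries left out in turn lay outside the groups compared. Many values thus had little or no room to lose the call, and the share kept is not a measure of robustness.

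Members called with clone E, 4 by edgeR, numbered 1 to 4 when 1 library was left out (1 without mono-culture replicate 1, 2 without clone E replicate 1). With clone N, 2 members became 1 with no filter on low counts, 4 at an adjusted p of 0.1, 5 when only the 8 libraries compared were fitted, and 1 to 3 when 1 library was left out. Over the clones, 7 members became 4 to 7 when 1 library was left out. Of the other lists over the clones, the stress genes went from 1 to 2 without all replicate 4 libraries, an alternative chosen after seeing the data, and were 1 to 2 when 1 library was left out (2 without KPC1 replicate 2). Proliferation genes, 8 called, ranged from 5 to 10 when 1 library was left out. Requiring 10 counts in every library left 1 epithelial marker called in place of 6, 1 immune marker in place of 2 and 0 endothelial in place of 1, and fewer of these genes were then tested. Without the replicate 4 libraries 1 immune and 0 endothelial markers were called, and leaving out 1 library gave 1 to 2 (1 without mono-culture replicate 3 or 4) and 0 to 1 (0 without mono-culture replicate 1 or 2).

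The labels tie no culture to a replicate number. Of 36 pairs of groups 3 had all 4 correlations of the same number over 0.1, which was the condition for taking the numbers as pairs, and 68 of all 144 such correlations were over 0.1, the lowest being -0.582. Each pair with the mono-culture had 0 or 1 of its 4 over 0.1, and pairs of co-cultures had 0 to 4. With the replicate block 3 members were called with clone N, 8 with clone V, 10 among the clones and 136 in pairs, in place of 2, 7, 9 and 123. Zmat3 was added with clone N (adjusted p = 0.00998) and among the clones (0.00289), and Phlda3 with clone V (0.0452). The block changed no other call of a member against mono-culture, in the mean of the clones, in KPC1 against it or among the clones.

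Without scaling beyond library size the median log2 fold change of all genes was -0.083 (clone V) to -0.021 (clone M) in the co-cultures, and over the clones 2837 genes were called higher and 4177 lower, in place of 3514 and 3594. Depth limits low genes most: Bbc3 rested on 101 counts in its smallest library.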
